A study of Saccharomyces cerevisiae with 4 samples.

Results

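The genes described here encode enzymes that build arginine, histidine, lysine, the aromatic amino acids, threonine, serine and asparagine in the budding yeast Saccharomyces cerevisiae, together with SNZ1, SNO1 and the regulator gene GCN4. They were taken as a named list of 39 genes, by systematic name, and all 39 had a probe among the 6388 gene probes of the array. In the strain BF2B under salt, SNZ1 and SNO1 were the 2 genes of this list that were over 2-fold higher than in BF2 on both slides, and none was over 2-fold lower. Of the uncalled genes, ratios above 1 on both slides were found for 6 of 7 lysine and 3 of 4 shikimate genes, and ratios below 1 on both for 3 of 5 arginine genes, where all genes above background gave 31.6% above and 32.0% below. Histidine genes also gave 3 of 5 above 1 on both. These pathway counts carry no test. They include ratios close to 0, such as those of ARO4, at 0.01 and 0.03, and of LYS2, at 0.02 on the second slide.

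The labels give BF2B as a double deletion of BDF1 and BDF2 that held the plasmid pYX242 and a construct named BDF2 L. The strain it was set against, BF2, lacked BDF1 and carried pYX242 and pRS316, so the BDF1 deletion and pYX242 were shared by both. A further strain, BF2S, lacked the same genes as BF2B and held BDF2 L with a construct named SIR2 H. All strains had been exposed to 0.6 mol/L NaCl for 45 min, and no culture without salt was analysed here. The products of BDF1 and BDF2 are bromodomain proteins, readers of histone acetylation, and Sir2 is a histone deacetylase. What L and H stand for, the growth medium, and whether cultures or clones were pooled are not stated in the labels.

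Yeast can make all of its amino acids, and many of the genes for this answer to general amino acid control. When uncharged transfer RNA builds up, the kinase Gcn2 phosphorylates a translation initiation factor, and this raises the translation of GCN4 messenger RNA. The Gcn4 protein then activates synthesis genes of many pathways, while single pathways have controls of their own, such as Lys14 for lysine and the Arg80 and Arg81 proteins for arginine. An array reads the GCN4 messenger RNA and not the Gcn4 protein.

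BF2B and BF2 RNA were hybridised together on 2 oligonucleotide slides. On the first slide BF2B was labelled with Cy5 and BF2 with Cy3, and on the second the dyes were exchanged. Since a single RNA pair was used for both slides, they count as 1 replicate, and the spread between cultures is unknown, and nothing could be tested against it. Each SD is the technical spread of 2 hybridisations. Signals are spot medians above local background, in brightness units and before dye correction. Ratios are log2 of BF2B over BF2 after an intensity-dependent correction of each slide. A signal compares strains at 1 probe only, since probes differ in brightness for reasons other than transcript level.

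The call required a difference of over 2-fold in one direction on both slides, with at least 1 channel of each slide above background. Of the 39 genes, 38 met the background condition, and the exception was THR1. The call was met by 2 of the 38 as higher and by 0 as lower, where the shares among all 4660 genes above background were 1.37% higher and 1.61% lower. Blank spots had medians of 29 to 110 units on these slides, and no spot of the 39 genes was saturated. For 32 genes both channels were above background on both slides. For HIS3, TRP1, TRP3, TRP4 and SER33 the Cy3 channel was not above background on either slide, so their ratios set a measured channel against an unmeasured one.

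**Figure D1:**
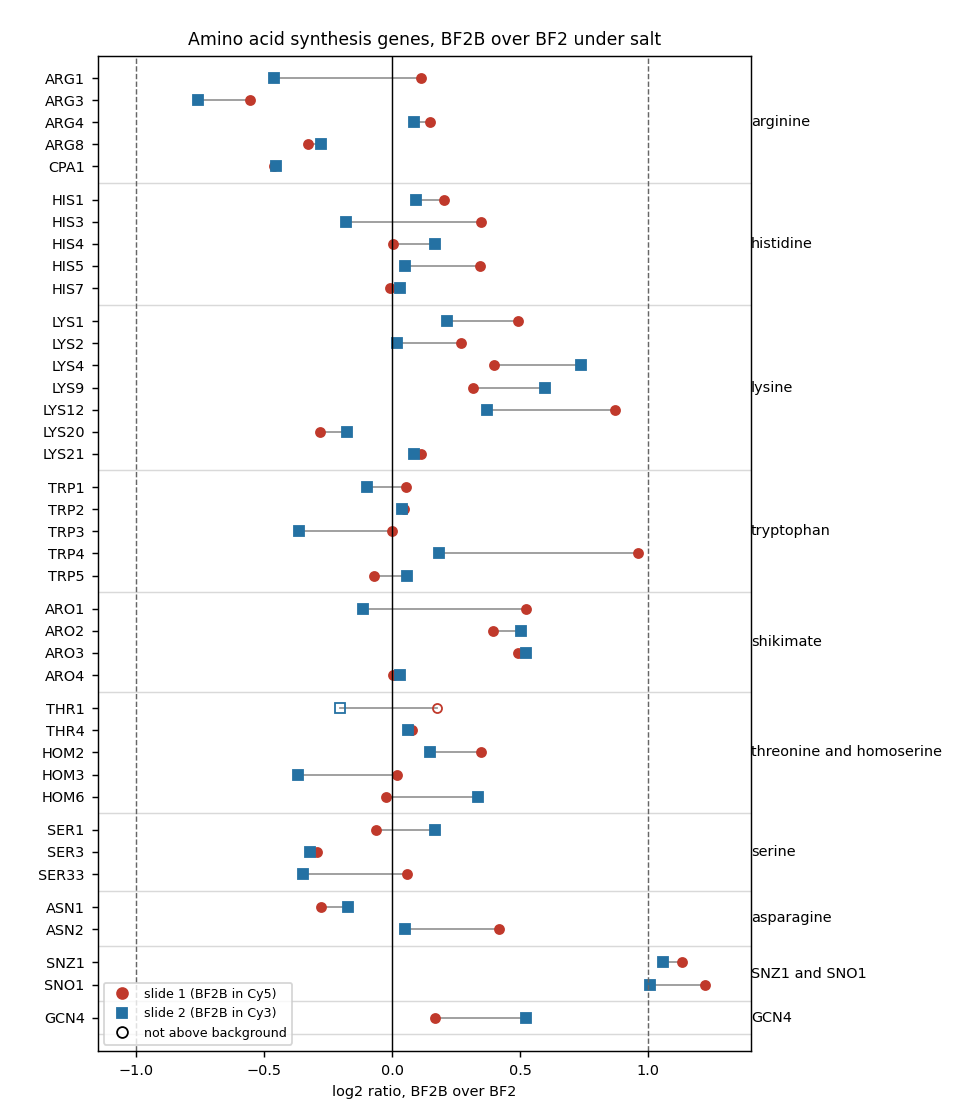
Log2 ratios of BF2B over BF2 (horizontal axis) for the 39 genes, by pathway. Circles are the first slide and squares the second, joined by a line, open symbols were not above background, and dashed lines mark 2-fold. SNZ1 and SNO1 lie past the right dashed line on both slides, and ARG3 lies farthest to the left, at -0.55 and -0.76.

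SNZ1 (YMR096W) and SNO1 (YMR095C) encode the synthase and glutaminase proteins of pyridoxal phosphate (vitamin B6) synthesis, a cofactor of the aminotransferases that finish many amino acids. Their systematic names place them side by side on chromosome XIII and on opposite strands. SNZ1 gave 5832 units in BF2B against 2523 in BF2 on the first slide and 5887 in BF2B against 3236 in BF2 on the second. Both BF2B signals were thus above both BF2 signals, and the log2 ratios were 1.13 and 1.06, a mean of 1.09 ± 0.05 or 2.13-fold.

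SNO1 gave 1096 units in BF2B against 320 in BF2 on the first slide, where the BF2 channel was not above background, and 1026 in BF2B against 537 in BF2 on the second. Its log2 ratios were 1.22 and 1.01, of which the first sets a measured channel against an unmeasured one. The mean was 1.11 ± 0.15, but both strains were measured on the second slide only, and SNO1 was not called when both channels had to be above background. The 3 spots of SNO1 had an SD of 0.18 on the second slide, where the ratio was closest to the 2-fold limit. In rank, SNZ1 stood at place 67 from the top of the 4660 genes. Neither call held in the deposited table or when median centring replaced the intensity-dependent correction. Under median centring the second slide gave 0.81 for SNZ1 and 0.96 for SNO1, although the means stayed above 1. The SNO1 call was also lost without background subtraction and with the median of a probe's spots, while SNZ1 was called under both.

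The related genes SNZ2 and SNO2 on chromosome XIV and SNO3 on chromosome VI were not above background on both slides. SNZ3 on chromosome VI was dim, with 223 and 203 units in BF2B against 96 and 218 in BF2, and a log2 ratio of 0.21 on each slide. Its Cy3 channel was not above background on either slide. PDX3, the oxidase that completes pyridoxal phosphate by the salvage route, had log2 ratios of 0.01 on both slides. Of these 5 genes, 0 were called. Probe sequences were not analysed here, so cross-hybridisation among SNZ or SNO copies was not tested.

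**Figure D2:**
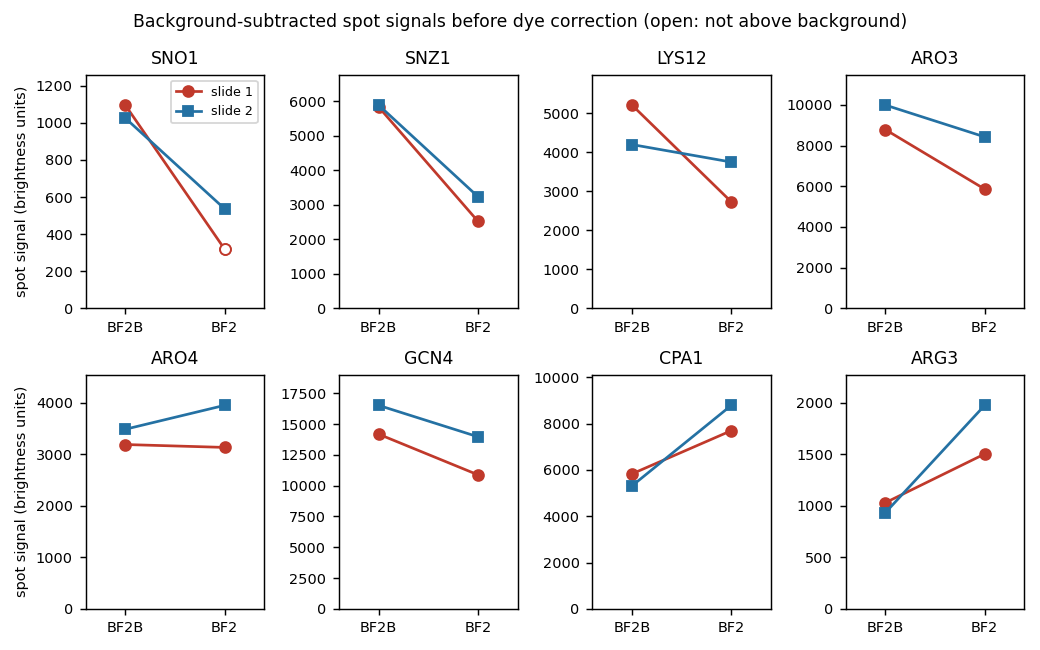
Background-subtracted spot signals in brightness units (vertical axes, from 0, one scale per gene) in BF2B and BF2 for 8 genes, before dye correction. Circles are the first slide, squares the second, and an open symbol was not above background. For SNO1, SNZ1, LYS12, ARO3 and GCN4 the BF2B signal was above the BF2 signal of the same slide, and for CPA1 and ARG3 it was below.

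GCN4 (YEL009C), the activator of these pathways, was not called. It gave 14192 units in BF2B against 10887 in BF2 on the first slide and 16533 in BF2B against 13980 in BF2 on the second. The log2 ratios were 0.17 and 0.52, both above BF2 but with a spread between slides of the size of the difference (0.34 ± 0.25).

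Among the 18 other regulators listed, 15 were above background, with 0 higher and 0 lower, and their median log2 ratio was 0.04. GCD6, a subunit of the exchange factor eIF2B, was the highest at 0.39 and 0.47. GCN20, which works with Gcn1 to activate Gcn2, was the lowest at -0.51 and -0.80, with its Cy3 channel not above background on either slide. It lies on chromosome VI, whose 87 genes above background had a median of -0.75 against -0.01 for genes of the other chromosomes, and the part of the chromosome in the GCN20 value was not tested. GCN2 itself, chosen here with its values in view, stood at -0.35 and -0.67. Its BF2B signals of 351 and 196 units stood against 402 and 505 in BF2, and on each slide the Cy3 channel was not above background.

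Over the 38 genes above background, the median log2 ratio was 0.09, with 0.11 on the first slide and 0.05 on the second. It was -0.01 in the deposited table, which is not centred. All 4660 genes had a median of -0.01. A ratio above 1 on both slides was found for 21 of the 38 genes, or 55.3%, and for 31.6% of all genes. Ratios below 1 on both slides were found for 6 genes, or 15.8%, against 32.0% of all genes, and 11 changed sign between slides. Without SNZ1 and SNO1 the median of the remaining 36 was still 0.09. These shares describe 1 RNA pair, and many of the ratios they count were close to 0.

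Most of the 38 genes lay within the bulk of the array. The middle 90% of the 4660 genes lay between -0.70 and 0.66, and of the 38 genes only SNZ1 and SNO1 lay above that range and 0 lay below it. Deviations of a slide from the mean of both had an SD of 0.21 over all 4660 genes. Across the 38 genes, which are not independent replicates, the ratios of the 2 slides correlated at a Pearson r of 0.743, and at 0.61 without SNZ1 and SNO1. Over all genes above background the value was 0.64.

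**Figure D3:**
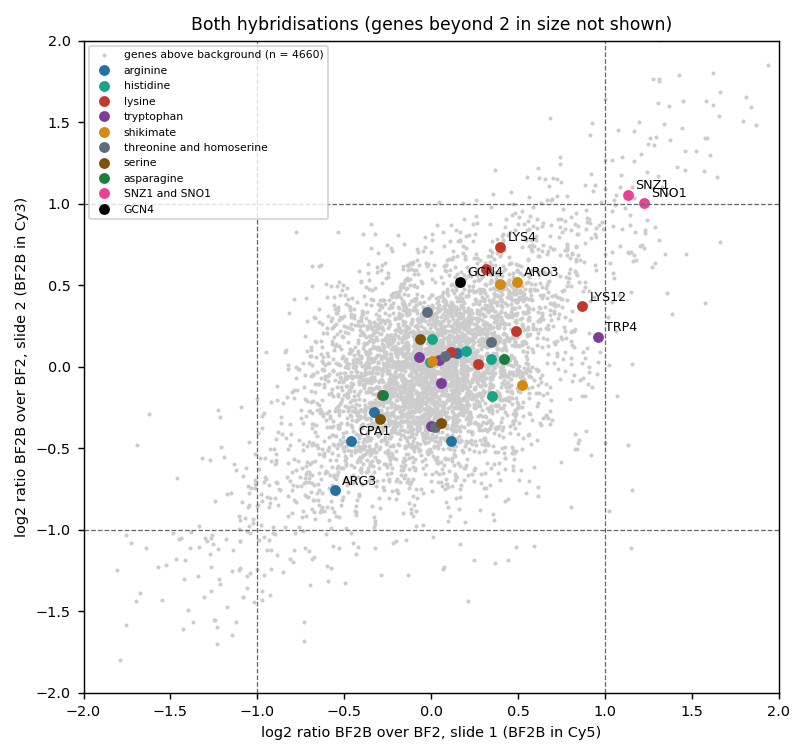
Log2 ratio of BF2B over BF2 on the first slide (horizontal) against the second (vertical). Grey points are the genes above background and coloured points the 38 listed genes by pathway, with 2-fold marked by dashed lines and genes beyond 2 in size on either axis not shown. SNZ1 and SNO1 lie past both dashed lines at the upper right, LYS12 and TRP4 are high mainly on the first slide, and ARG3 and CPA1 lie lower left.

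The lysine genes had the highest median of gene means of any pathway with 3 or more members, 0.35, and 6 of 7 were above BF2 on both slides. On each single slide the shikimate median was higher, at 0.44 and 0.27 against 0.32 and 0.22 for lysine. LYS20 and LYS21 encode the homocitrate synthases that open the pathway. They differed in sign, though LYS21 was close to 0 on both slides and its mean fell to 0.01 in the deposited table. LYS20 gave 3604 and 4149 units in BF2B against 4335 and 5542 in BF2, and its log2 ratios were -0.28 and -0.18. LYS21 gave 7833 and 8585 units in BF2B against 6816 and 9822 in BF2, and its log2 ratios were 0.11 and 0.09.

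All 5 listed genes of the later steps had ratios above 1 on both slides, with a median of 0.46 and none called. This group leaves out LYS20 and LYS21 and was drawn with earlier results of these data known. With those genes the lysine median was 0.35. Of all genes above background, 31.6% had ratios above 1 on both slides. LYS4, the homoaconitase, gave 3865 and 4285 units in BF2B against 2859 and 2923 in BF2. The 2 BF2B signals were both above the 2 BF2 signals, and the log2 ratios were 0.40 and 0.74. LYS12, the homoisocitrate dehydrogenase, gave 5216 and 4203 units in BF2B against 2734 and 3754 in BF2. It had the largest mean of any uncalled gene of the list, 0.62 ± 0.35 or 1.54-fold, but 0.87 came from the first slide and 0.37 from the second.

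The means of LYS9, LYS1 and LYS2 were below those of LYS4 and LYS12, but single slides did not keep this order. LYS9 and LYS1, the saccharopine dehydrogenases of the last steps, had log2 ratios of 0.32 and 0.60 for LYS9 and of 0.49 and 0.22 for LYS1. LYS2, the aminoadipate reductase and also a marker used in yeast strains, gave 6170 and 5833 units in BF2B against 4925 and 6859 in BF2. Its ratios of 0.27 and 0.02 left it near 0 on the second slide, and its mean turned negative in the deposited table. LYS5, which activates the Lys2 protein, stood at 0.28 ± 0.26, with its Cy3 channel not above background on either slide. LYS14, the pathway's activator gene, changed sign between slides, at -0.19 and 0.15, and was above background only in Cy5.

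The arginine genes had the lowest median of any pathway, -0.30, and 0 of 5 were called. ARG3, ornithine carbamoyltransferase, was the lowest gene of the whole list. It gave 1029 and 932 units in BF2B against 1502 and 1974 in BF2, so that both BF2B signals lay below both BF2 signals. The log2 ratios were -0.55 and -0.76, a mean of -0.66 ± 0.15, or 1.58-fold higher in BF2. ARG3 stood 261 places from the bottom of the 4660 genes.

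CPA1, the small subunit of the arginine-specific carbamoyl phosphate synthetase, followed with 5832 and 5313 units in BF2B against 7701 and 8795 in BF2. Its log2 ratios were -0.46 and -0.45, the closest match between slides in the list. ARG8, the acetylornithine aminotransferase, was at -0.33 and -0.28.

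The last steps of the pathway did not share the direction of ARG3. ARG1, argininosuccinate synthetase, changed sign, with 6509 and 6073 units in BF2B against 5773 and 10169 in BF2 and log2 ratios of 0.11 and -0.46. ARG4, argininosuccinate lyase, was at 0.15 and 0.08, and its mean turned negative in the deposited table. Among the early enzymes and the carrier outside the list of 39, ARG7 stood at 0.13 ± 0.07, ARG5,6 at -0.03 ± 0.20 and ORT1, the ornithine carrier, at 0.28 ± 0.01. The Cy3 channel of ORT1 was not above background on either slide, so its small SD does not make its ratio precise. ARG81, an arginine regulator gene, stood at 0.42 ± 0.09, with its BF2 channel not above background on the first slide. ARG80 was not above background on both slides.

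**Figure D4:**
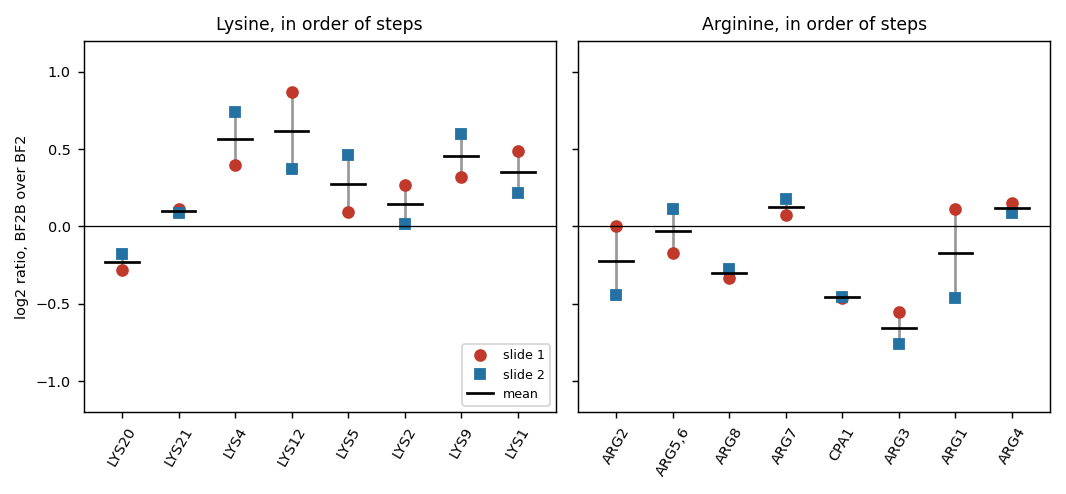
Log2 ratios of BF2B over BF2 (vertical axis) along the lysine and arginine pathways, with the genes shown in the order of their steps and CPA1 before ARG3. Circles are the first slide, squares the second and bars the mean. Lysine genes from LYS4 onwards lie above 0 on both slides, and ARG8, CPA1 and ARG3 lie below 0 on both. All symbols are filled, but LYS5 and ARG2 were above background only in Cy5 on each slide.

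The shikimate pathway leads to chorismate, the shared precursor of the aromatic amino acids, and its 4 genes had a median of 0.33. ARO3 and ARO4 encode the isoenzymes of its opening step, inhibited by phenylalanine and by tyrosine. ARO3 gave 8782 and 9986 units in BF2B against 5860 and 8423 in BF2, with log2 ratios of 0.49 and 0.52, or 1.42-fold. ARO4 gave 3186 and 3482 units in BF2B against 3130 and 3946 in BF2, with log2 ratios of 0.01 and 0.03. The isoenzyme genes therefore differed by more than either differed between slides (0.51 ± 0.02 for ARO3 and 0.02 ± 0.02 for ARO4).

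ARO2, chorismate synthase, resembled ARO3 at 0.40 and 0.50. ARO1, whose protein carries the middle steps, was split at 0.52 and -0.11. ARO4 has HIS7 as its neighbour by systematic name (YBR249C and YBR248C), and both lay close to 0. HIS7 gave 3738 and 4232 units in BF2B against 3697 and 4869 in BF2, with log2 ratios of -0.01 and 0.03.

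Tryptophan genes branched from chorismate showed no common direction, with a median of -0.01 and 0 of 5 called. TRP2, which encodes the chorismate-binding part of anthranilate synthase, lay at 0.05 and 0.04, and TRP5, tryptophan synthase, at -0.07 and 0.06. TRP4, anthranilate phosphoribosyltransferase, gave 846 and 550 units in BF2B against 296 and 571 in BF2. Its log2 ratios of 0.96 and 0.18 were the least alike of the list, and only its Cy5 signals were above background.

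TRP3, the glutamine-binding partner of Trp2, stood at 0.00 and -0.36. TRP1, the phosphoribosylanthranilate isomerase and a common strain marker, gave 417 and 378 units in BF2B against 322 and 518 in BF2. Its Cy5 signal was above background in BF2B on the first slide and in BF2 on the second, and its log2 ratios were 0.05 and -0.10. Of the enzymes towards tyrosine and phenylalanine, TYR1 stood at 0.29 ± 0.09 and PHA2 at -0.23 ± 0.22, and ARO7, chorismate mutase, was not above background. TYR1 was above background only in Cy5 on both slides, and PHA2 only in Cy5 on the first.

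The histidine genes lay together near 0, with a median of 0.09 that turned negative in the deposited table, a range of 0.01 to 0.20 and 0 of 5 called. HIS1, the phosphoribosyltransferase of the opening step, was at 0.20 and 0.09. HIS4, a multifunctional enzyme, was at 0.00 and 0.17, and HIS5, the aminotransferase, at 0.34 and 0.05. HIS3, the dehydratase and another strain marker, gave 728 and 420 units in BF2B against 471 and 610 in BF2. Its Cy5 signal was above background in each strain, and its log2 ratios were 0.35 and -0.18. HIS2, outside the list, lies on chromosome VI and was not above background on both slides.

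Threonine is made from aspartate through homoserine, and the 4 genes of this route above background had a median of 0.11. HOM2, aspartate semialdehyde dehydrogenase, lay above BF2 on both slides at 0.35 and 0.15. HOM3, the aspartate kinase that opens the route, was at 0.02 and -0.37, and HOM6, homoserine dehydrogenase, at -0.02 and 0.33. THR4, threonine synthase, was even at 0.08 and 0.06. THR1, homoserine kinase, gave 154 and 107 units in BF2B against 42 and 214 in BF2, which was not above background, so it has no usable ratio here.

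Serine is made from 3-phosphoglycerate, and the opening step is encoded by the paralogues SER3 and SER33. SER3 gave 1969 and 2506 units in BF2B against 2396 and 3651 in BF2, with log2 ratios of -0.29 and -0.32, or 1.24-fold higher in BF2. SER33 gave 582 and 394 units in BF2B against 478 and 667 in BF2, with log2 ratios of 0.06 and -0.35. SER3 was therefore below BF2 on both slides, while SER33 split and was above background only in Cy5. SER1, the aminotransferase of the next step, stood at -0.06 and 0.17, and SER2, the phosphatase, was not above background.

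The asparagine synthetase genes ASN1 and ASN2 moved apart. ASN1 gave 4102 and 4685 units in BF2B against 4890 and 6264 in BF2, with log2 ratios of -0.28 and -0.17. ASN2 gave 2675 and 2453 units in BF2B against 1926 and 2721 in BF2, with log2 ratios of 0.42 and 0.05. The paralogues thus lay on opposite sides of 0 on both slides, though ASN2 was close to 0 on the second. Cross-hybridisation between paralogues was not tested for these pairs either.

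Of 29 enzyme genes of amino acid synthesis outside the 39, 23 were above background, with 0 higher, 0 lower and a median of 0.13. Over all genes, 1.37% were called higher and 1.61% lower, so 0 calls among 23 is not a trait of this list. Ratios above 1 on both slides were found for 13 of the 23, or 56.5%, against 31.6% of all genes. Ratios below 1 on both were found for 4, or 17.4%, against 32.0%. These shares were not tested. AAT2, an aspartate aminotransferase, was the highest at 0.38 and 0.48. AGX1, the alanine glyoxylate aminotransferase that makes glycine, was the lowest at -0.78 and -1.02. On the second slide its BF2B channel was not above background. AGX1 lies on chromosome VI, whose median is given above.

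Of 8 listed genes of amino acid breakdown, 6 were above background, and 1 was called lower and 0 higher. Over all genes above background, 1.61% were called lower and 1.37% higher. PUT1, proline oxidase, was the breakdown gene called. It gave 2419 and 2603 units in BF2B against 10380 and 11528 in BF2, with log2 ratios of -2.08 and -1.84. ARO10, a decarboxylase of aromatic amino acid breakdown, was the highest, with 4371 and 4260 units in BF2B against 1724 and 2574 in BF2. Its log2 ratios of 1.24 and 0.90 kept it from being called on the second slide. CAR1, arginase, stood at -0.41 and -0.44. Of the rest of this list above background, PUT2 stood at -0.59 and -0.74 and ARO9 at 0.59 and 0.74. CAR2 changed sign, at 0.14 and -0.20, with its Cy3 channel not above background on either slide.

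**Figure D5:**
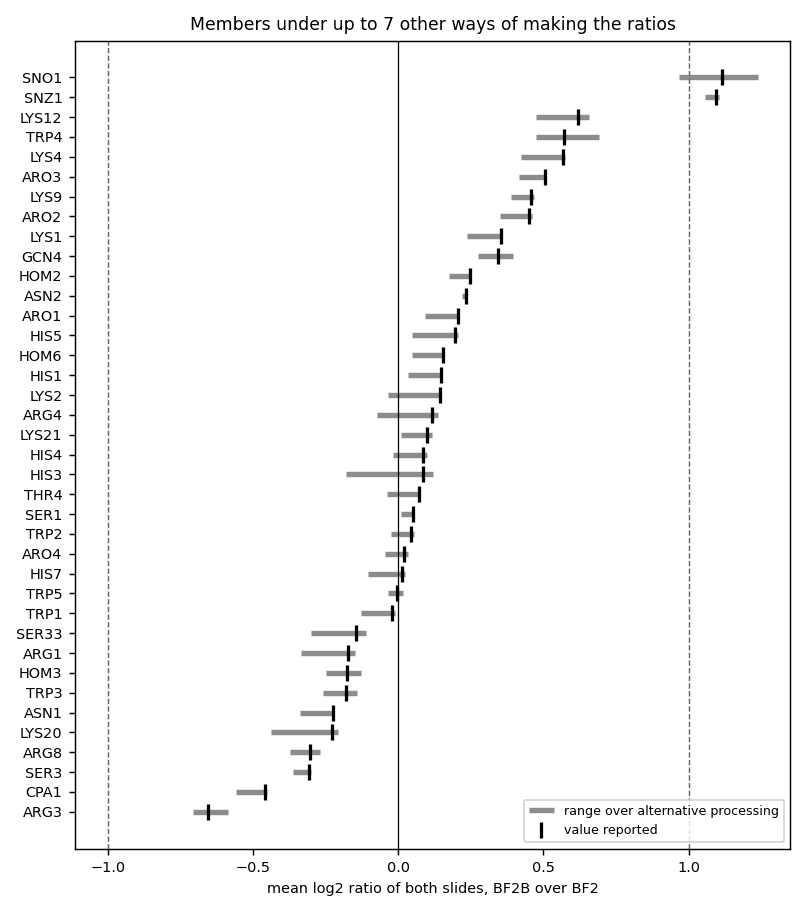
Mean log2 ratio of both slides, BF2B over BF2 (horizontal axis), for the 38 genes above background, ordered by value. The black tick is the value reported, the grey bar its range over up to 7 other ways of making the ratios, and dashed lines mark 2-fold. SNZ1 stayed between 1.06 and 1.10 and ARG3 between -0.71 and -0.59.

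The slides of BF2S were read for these genes in outline only. Blank spots in the BF2S channel had medians of 6049 and 5325 units, and 0 of the 39 genes exceeded them on both slides. The BF2S channel was above local background on both slides for 15 of the 39 and on neither for 10. SNZ1 gave 422 and -34 units in the BF2S channel against 3484 and 3969 in BF2, SNO1 gave 120 and -389 against 542 and 842, and GCN4 gave 578 and 89 against 27046 and 28652. On neither slide did the BF2S signal of any of these 3 pass background, so no ratio is given for them. Over the 38 genes, which include genes with no measured BF2S signal, the median log2 ratio of BF2S over BF2 was -1.10 on each slide, and -1.67 and -1.53 under median centring. It is given as a description of the slides and not as a level in BF2S cells. BF2 was the other channel on all 4 slides, so the BF2B and BF2S values are not independent of it.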

How the data were processed

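Per the labels' protocols, total RNA was linearly amplified and reverse transcribed, and the dyes Cy5 and Cy3 were built in by Klenow enzyme before hybridisation. Spot and local background intensity at 635 nm and 532 nm were deposited for each slide, per the file headers. The deposited table holds log2 ratios of strain over BF2. They matched the scanner values of the first spot of each probe, uncentred, within 0.001 for 63.4% to 69.8% of probes, with correlations of at least 0.9998 and column medians of 0.20, -0.29, 0.23 and -0.79. Scanner, spot software, labelled strand and genome build are not named in the labels or headers.

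Ratios were made with limma 3.58.1 in R 4.3.3 from spot medians, by normexp background correction (offset 50), loess on the gene spots of each slide and the mean of 3 spots. Tables and figures used Python 3.11.15, pandas 2.3.3, numpy 2.4.6 and matplotlib 3.10.9. The background condition for a channel was 2 or more of 3 spots brighter than the local background mean plus 2 SD. Of 6388 gene probes, 5849 were matched by systematic name to the RefSeq gene table (assembly R64). The 2-fold rule on both slides follows the labels, and the background filter was added to it. Genes that overlap in antisense could not be told apart.

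The members, lists and rules were chosen with earlier results of these data known. The text names all 39 members, with signals for called genes, the extremes, paralogues, neighbours, markers and GCN4, and, of the 60 other listed genes, those called and the highest and lowest of each list. Further genes of those lists are named as pathway context. HIS7 and ARO4 had been listed as divergent neighbours, but their names place them on 1 strand. The alternatives changed the background correction, normalization, averaging of spots, filter, threshold and slides used. Promoter and protein sequences were not analysed here. On arrays, the number of slides and the signal over background limit precision.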

Additional observations from a re-analysis of the deposited data

Results flagged for a closer look

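The median of the listed genes differed in sign between the slides of the 2 strains, while single genes did so only in part. Their median log2 ratio was 0.11 and 0.05 on the BF2B slides and -1.10 on each BF2S slide, over the same 38 genes. Of the 25 genes with 1 sign on both slides of each strain, 16 had opposite signs in the strains. The matching share over all genes was not computed, so this count is not a trait of the listed genes. The difference in medians was not tested. The BF2S channel was above background on both slides for only 15 of the 39 genes, so neither the medians nor the signs measure a difference between the strains. Blank spots in the BF2S channel, at 6049 and 5325 units, were brighter than 39 of 39 of these genes on at least 1 slide.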

How the results depend on the processing

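The 2 higher calls, SNZ1 and SNO1, were the 2 called with an offset of 10, with scaling between slides and with marked spots left out. They were also the 2 called with no filter, at 1.5-fold, with 2-fold in the mean alone and on each slide alone. Those last settings are looser than the call, so they could add members but could not drop these 2. Marked spots were 54.6% of gene spots on the first slide and 0% on the second. Leaving them out therefore could not change the second slide, where both genes were closest to the 2-fold limit. Without background subtraction, with the median of a probe's spots and with both channels above background, 1 remained, SNZ1. With median centring, in the deposited table and at 3-fold, 0 remained. No member was called lower under any of these settings. In the deposited table, which is uncentred, the second slide gave 0.89 for SNZ1 and 0.88 for SNO1, and the member median moved to -0.0059. Over all genes, calls were 64 higher and 75 lower as reported, 194 and 217 at 1.5-fold, 13 and 17 at 3-fold, 98 and 148 on the second slide alone, and 150 and 112 on the first alone. Over 7 ways of making the ratios, 29 of 38 members kept their sign in all that gave a value, and the other 9 (ARG4, HIS3, HIS4, HIS7, LYS2, TRP2, TRP5, ARO4 and THR4) had means of at most 0.14 in size. All 9 changed sign in the deposited table, which is uncentred and holds 1 spot per probe. Of these, only HIS7 and TRP5 changed sign in another way as well. Ranges were 0.24 to 0.36 for the lysine median, -0.37 to -0.27 for arginine and 0.22 to 0.34 for shikimate.

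No paired analysis was possible because both slides of a strain hold the same RNA pair, so slides with the same number share only a dye orientation and no fit has residual degrees of freedom among samples. Each comparison rests on 1 RNA pair, and dim probes were measured in Cy5 only.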
